A study of Homo sapiens with 9 samples.

Results

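Cytoplasmic RNA of cells treated with an siRNA against GANP was compared with that of cells treated with a control siRNA. The comparison takes the 3 samples labelled GANP siRNA and the 3 labelled Control siRNA, 6 of the 9 samples of the series, and 13117 genes could be tested of 18665 with a symbol. HCT116 is an established human colorectal carcinoma line. Its cells were transfected with GANP siRNA, NXF1 siRNA or Control siRNA, were lysed 72 h later with digitonin, which opens the plasma membrane and leaves the nucleus closed, and the cytoplasmic RNA was hybridised to Illumina HumanWG-6 v3 arrays. There was 1 array of each group in each of 3 separate depletion experiments. Each target was depleted with a single siRNA sequence, and the control siRNA is the GANP siRNA with a pair of bases changed, so effects of that one sequence on other transcripts cannot be told apart from loss of GANP. The 9 arrays were fitted together and the NXF1 siRNA arrays serve below only to show where GANP siRNA differed from them.

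GANP is the scaffold of TREX-2, a complex at the inner face of the nuclear pore that hands spliced messenger ribonucleoproteins over to the export receptor NXF1. NXF1 carries the bulk of mRNA through the pore. A cytoplasmic signal depends on synthesis, export and decay of a transcript, and these arrays do not separate them. Equal amounts of RNA were hybridised and the signals were quantile normalized, so every rise and fall is relative to the other transcripts on the array.

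MCM3AP, the gene that encodes GANP, was lower on all 3 GANP siRNA arrays than on any control array. In experiments 1, 2 and 3 its log2 signal was 9.59, 9.80 and 9.88 in control cells and 8.59, 8.80 and 8.76 in GANP-depleted cells, 51.2% lower on average. The log2 fold change was -1.04 (standard error 0.10, limma adjusted p = 7.0e-05). The keratins KRT18 and KRT8 and the adhesion molecule EPCAM, which mark colon epithelium, had mean log2 signals of 15.04, 12.55 and 12.42 with control siRNA (SD 0.07, 0.17 and 0.13, n = 3). Of the 23 colon epithelial markers with a probe, 17 passed the filter on dim probes and 1 was called, ELF3, an epithelial transcription factor, at 0.51. In this list 4 genes had an unadjusted p under 0.05, and with the experiment as a block CDH1, the adhesion protein E-cadherin, was also called (0.53, limma adjusted p = 0.0148, against 0.14 without the block). The mean log2 signal of the 23 markers was 8.39 to 8.45 on the control arrays and 8.48 to 8.62 on the GANP siRNA arrays. Control means of the 17 kept markers ran from 6.34 to 15.04 with a median of 8.42. KRT18, KRT8 and EPCAM thus lie above that median, whereas AGR2 (6.68) and CLDN4 (6.66) were dim. Of 14 fibroblast and 14 blood cell markers with a probe, 6 and 6 passed the filter and 0 were called in limma (0 and 1 at an unadjusted p under 0.05). The whole lists averaged 6.63 to 6.73 on every array of both groups, against a filter of 6.35. Control means of the kept markers reached 9.03 for fibroblasts and 8.94 for blood cells.

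Calls required a Benjamini-Hochberg adjusted p from limma below 0.05 together with a log2 fold change beyond 0.25 in either direction. By this rule 826 genes rose (6.3% of those tested) and 773 fell (5.89%), with median log2 fold changes of 0.398 and -0.401. For 823 of the risers and 770 of the fallers the 3 arrays of each group did not overlap, a separation that the call itself largely brings. Few changes were large, and 12 genes rose and 14 fell by more than 1 on the log2 scale. Because the counts moved with single arrays, a narrower set is used for the genes named here. A steady call was made in the same direction in each of 14 fits (the whole set, a fit with the experiment as a block, the authors' signals without background correction, all probes of a gene averaged, a fit without the NXF1 siRNA arrays and 9 fits leaving out 1 array each) and had the same sign in all 3 experiments. There were 336 steady rises (2.56% of the genes tested) and 309 steady falls (2.36%), with median log2 fold changes of 0.516 and -0.552. Chosen after their values were seen, to fill out lists, were the steady calls H1-2, H2AC20, H4C12, IRF1, IRF9, PARP9, HERC5, NR4A2, KLF6, SRSF6, CORO1B and ACTN1. The full counts were smallest without control siRNA replicate 2 (487 up, 390 down). They were 542 and 508 without GANP siRNA replicate 2 and 515 and 437 without GANP siRNA replicate 3, and 494 genes were down without control siRNA replicate 3.

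**Figure D1:**
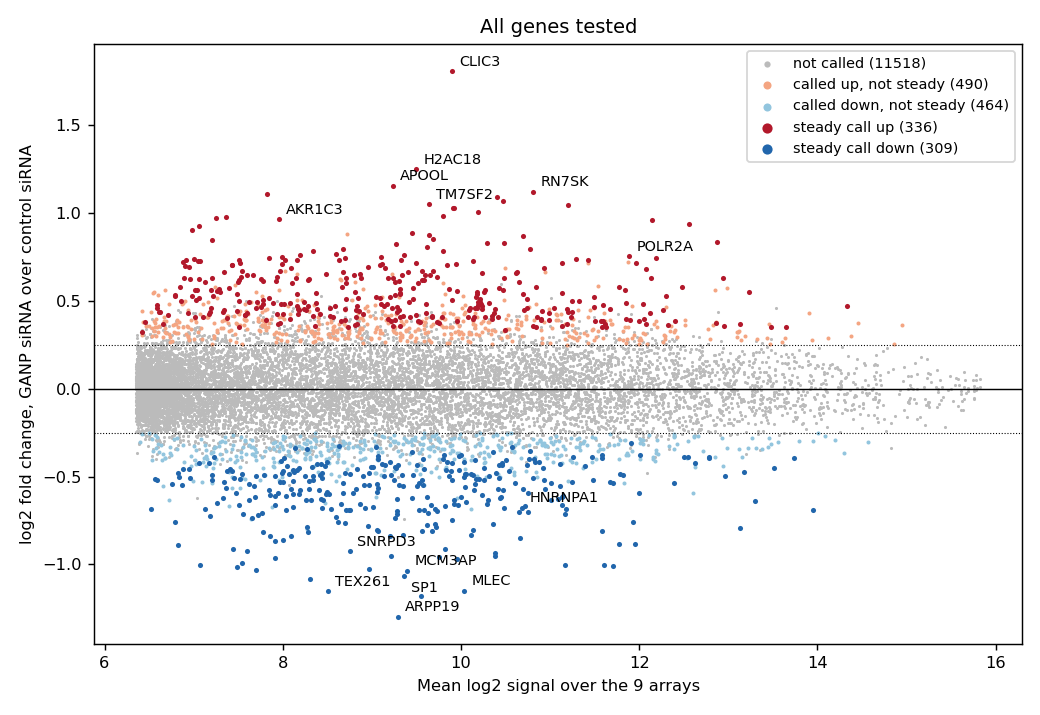
Log2 fold change of GANP siRNA over control siRNA (vertical axis) against the mean log2 signal over the 9 arrays (horizontal axis) for the 13117 genes tested. Each point is a gene, dotted lines mark 0.25 and -0.25, and the 336 steady rises and 309 steady falls (dark red and dark blue) lie at all signal levels, with CLIC3 alone above 1.5.

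Calls were rarer among dim genes. The genes were put into 4 bins of equal number by mean signal over all arrays. In the dimmest bin 1.55% were called up and 0.884% down, in the brightest 7.2% and 7.38%, and in the bin below the brightest 9.79% and 9%. By annotated gene length, falls outnumbered rises in the shortest of 4 such bins (median 5041 bp, 5.74% up and 7.6% down) and rises outnumbered falls in the longest (8.33% up and 3.79% down). Steady calls gave 2.69% up and 3.21% down in the shortest bin and 3.27% up and 1.62% down in the longest. These shares are a description, since genes are not independent replicates.

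The largest steady rise was in CLIC3, a chloride intracellular channel protein. From 9.01, 9.20 and 8.90 in control cells its log2 signal went to 10.76, 10.95 and 10.82 after GANP siRNA, a fold change of 3.50. With NXF1 siRNA they were 9.74, 9.78 and 9.96, between the other groups on every array, and the direct difference of GANP from NXF1 siRNA was 1.02 (standard error 0.10, limma adjusted p = 3.3e-05). APOOL, a protein of the mitochondrial inner membrane that helps to shape cristae, rose from 8.66, 8.39 and 8.45 to 9.71, 9.59 and 9.67. The noncoding RNA RN7SK, which holds the elongation kinase P-TEFb inactive, rose from 9.92, 9.58 and 9.29 to 11.02, 10.55 and 10.59, and both of its kept probes rose (1.12 and 0.94). BCYRN1, a small neuronal cytoplasmic RNA related to Alu elements, rose by 0.96 (standard error 0.14) and was close to the control with NXF1 siRNA (0.08). The probes of RN7SK and BCYRN1 can also read related repeats or pseudogenes, so the source of these signals is uncertain.

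TM7SF2, a sterol reductase of cholesterol synthesis, rose by 1.05 (standard error 0.10), and AKR1C3, an aldo-keto reductase of steroid and prostaglandin metabolism, rose by 0.96 (standard error 0.10). SELENOP, the secreted selenium carrier, had dim signals of 6.15, 6.71 and 6.51 with control siRNA and 6.96, 7.79 and 7.34 with GANP siRNA. SMIM14, a small membrane protein of the endoplasmic reticulum (ER), rose by 1.05 on its brightest probe and by 0.63 with its probes averaged. The same held for NACC2, a transcriptional repressor (1.01 and 0.53), and for SUN3, a nuclear envelope protein of the germ line (1.09 and 0.52). UBFD1 rose by 1.03, the cullin adaptor KLHL15 by 0.98 and the transcript LOC105370941 by 0.93. KRT80, a keratin of differentiating epithelia, rose by 0.98, or by 0.65 with its probes averaged.

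**Figure D2:**
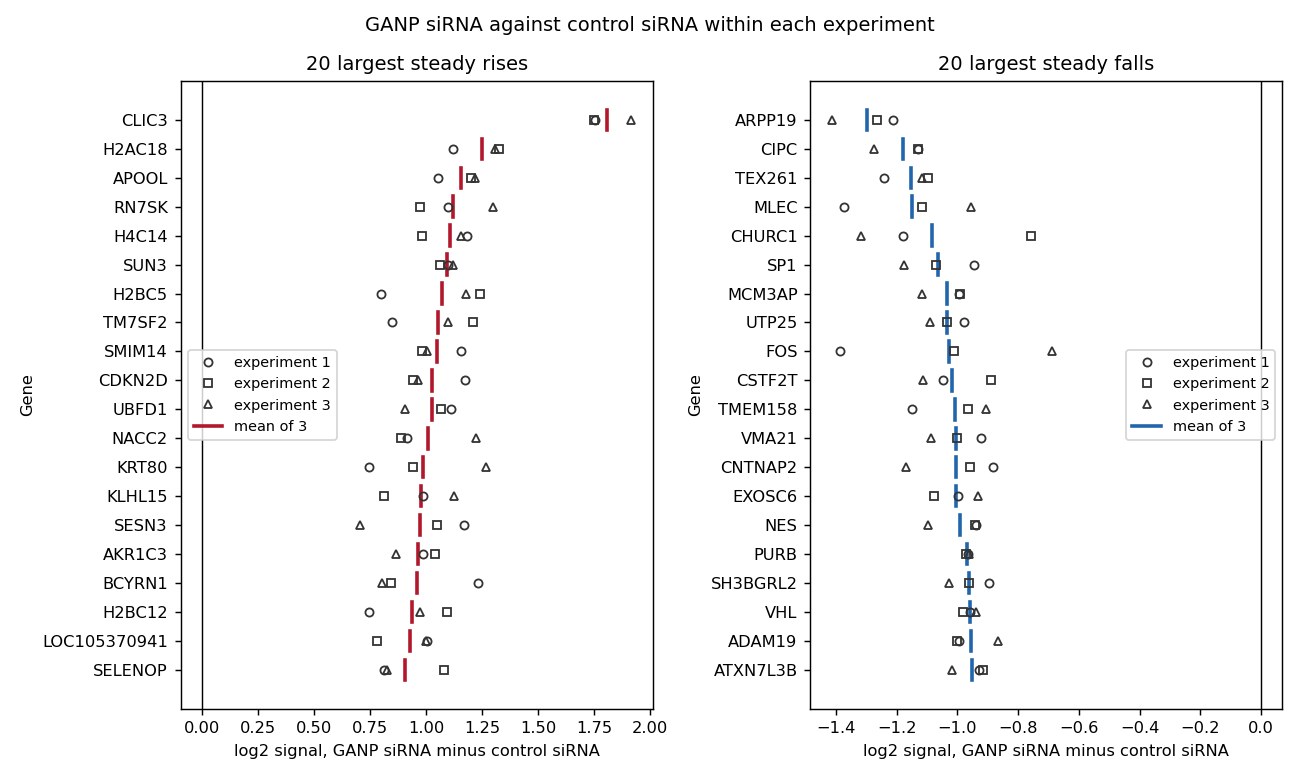
Difference in log2 signal between GANP siRNA and control siRNA (horizontal axes) within each of the 3 experiments (open symbols) and their mean (vertical bars) for the 20 largest steady rises and the 20 largest steady falls, 1 gene per row. Every symbol lies on the same side of 0 as its mean, which the rule for steady calls requires, and FOS, CHURC1 and MLEC show the widest spread among the falls.

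ARPP19, which inhibits the phosphatase that opposes mitotic kinases, had the largest steady fall. Control cells gave 10.32, 9.99 and 9.93 on the log2 scale and GANP-depleted cells 9.11, 8.72 and 8.51, 59.3% lower. CIPC, a repressor of the circadian CLOCK protein, went from 10.28, 10.12 and 10.07 to 9.15, 8.99 and 8.79. Its fall of 1.18 on the log2 scale was deeper than with NXF1 siRNA, the direct difference being -0.55 (limma adjusted p = 0.0049). MLEC, an ER lectin that recognises newly glycosylated proteins, went from 10.71, 10.60 and 10.42 to 9.34, 9.48 and 9.46, and here too the direct difference was below 0 at -0.68 (limma adjusted p = 0.0010). CHURC1, a zinc finger protein known from neural development of chick and frog, fell by 1.08 and differed from NXF1 siRNA by -0.58. For CIPC, MLEC and CHURC1 in no case did the GANP siRNA arrays overlap those of either other group.

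Several transcription and growth regulators stood among the other large falls. SP1, which binds GC-rich promoters, fell by 1.06 (standard error 0.09) and PURB, a single-strand DNA-binding repressor, by 0.97 (standard error 0.08), with signals of 10.61, 10.54 and 10.56 against 9.64, 9.57 and 9.60. VHL, the substrate receptor of the ligase that degrades hypoxia-inducible factors, fell by 0.96 on its brightest probe and by 0.61 with its 3 probes averaged. ATXN7L3B fell by 0.95 and had the smallest adjusted p among the falls (2.5e-05). MIEF1, a receptor for the mitochondrial fission GTPase, fell by 0.93 (standard error 0.08) and VMA21, an assembly factor of the vacuolar proton pump, by 1.00 (standard error 0.13). NES, which encodes the intermediate filament nestin, fell by 0.99, TMEM158, a membrane protein induced by Ras signalling, by 1.01, the metalloprotease ADAM19 by 0.95, the neurexin-like CNTNAP2 by 1.00 and SH3BGRL2 by 0.96. Of these genes VHL, MIEF1 and SH3BGRL2 passed the direct comparison with NXF1 siRNA, at -0.32, -0.48 and 0.31 (limma adjusted p = 0.019, 0.0014 and 0.023), and with the experiment as a block VMA21 did too, at -0.34 (adjusted p = 0.0135, against 0.085 without the block).

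Gene lists by function, 65 beside the cell markers, placed 2924 of the tested genes, cell markers included. The medians of these lists lay between -0.18 and 0.18, against 0.00186 over all genes tested, and 60 lists held at least 1 steady call. In the list counts that follow, steady calls meet the whole rule given above. Over all genes tested 2.56% were steady rises and 2.36% steady falls. The wider counts of calls moved, down or up, when arrays were left out. With the experiment as a block they grew over all genes, from 826 rises and 773 falls to 1194 and 1113. Block counts of a list are therefore not to be set against the shares found without the block.

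**Figure D3:**
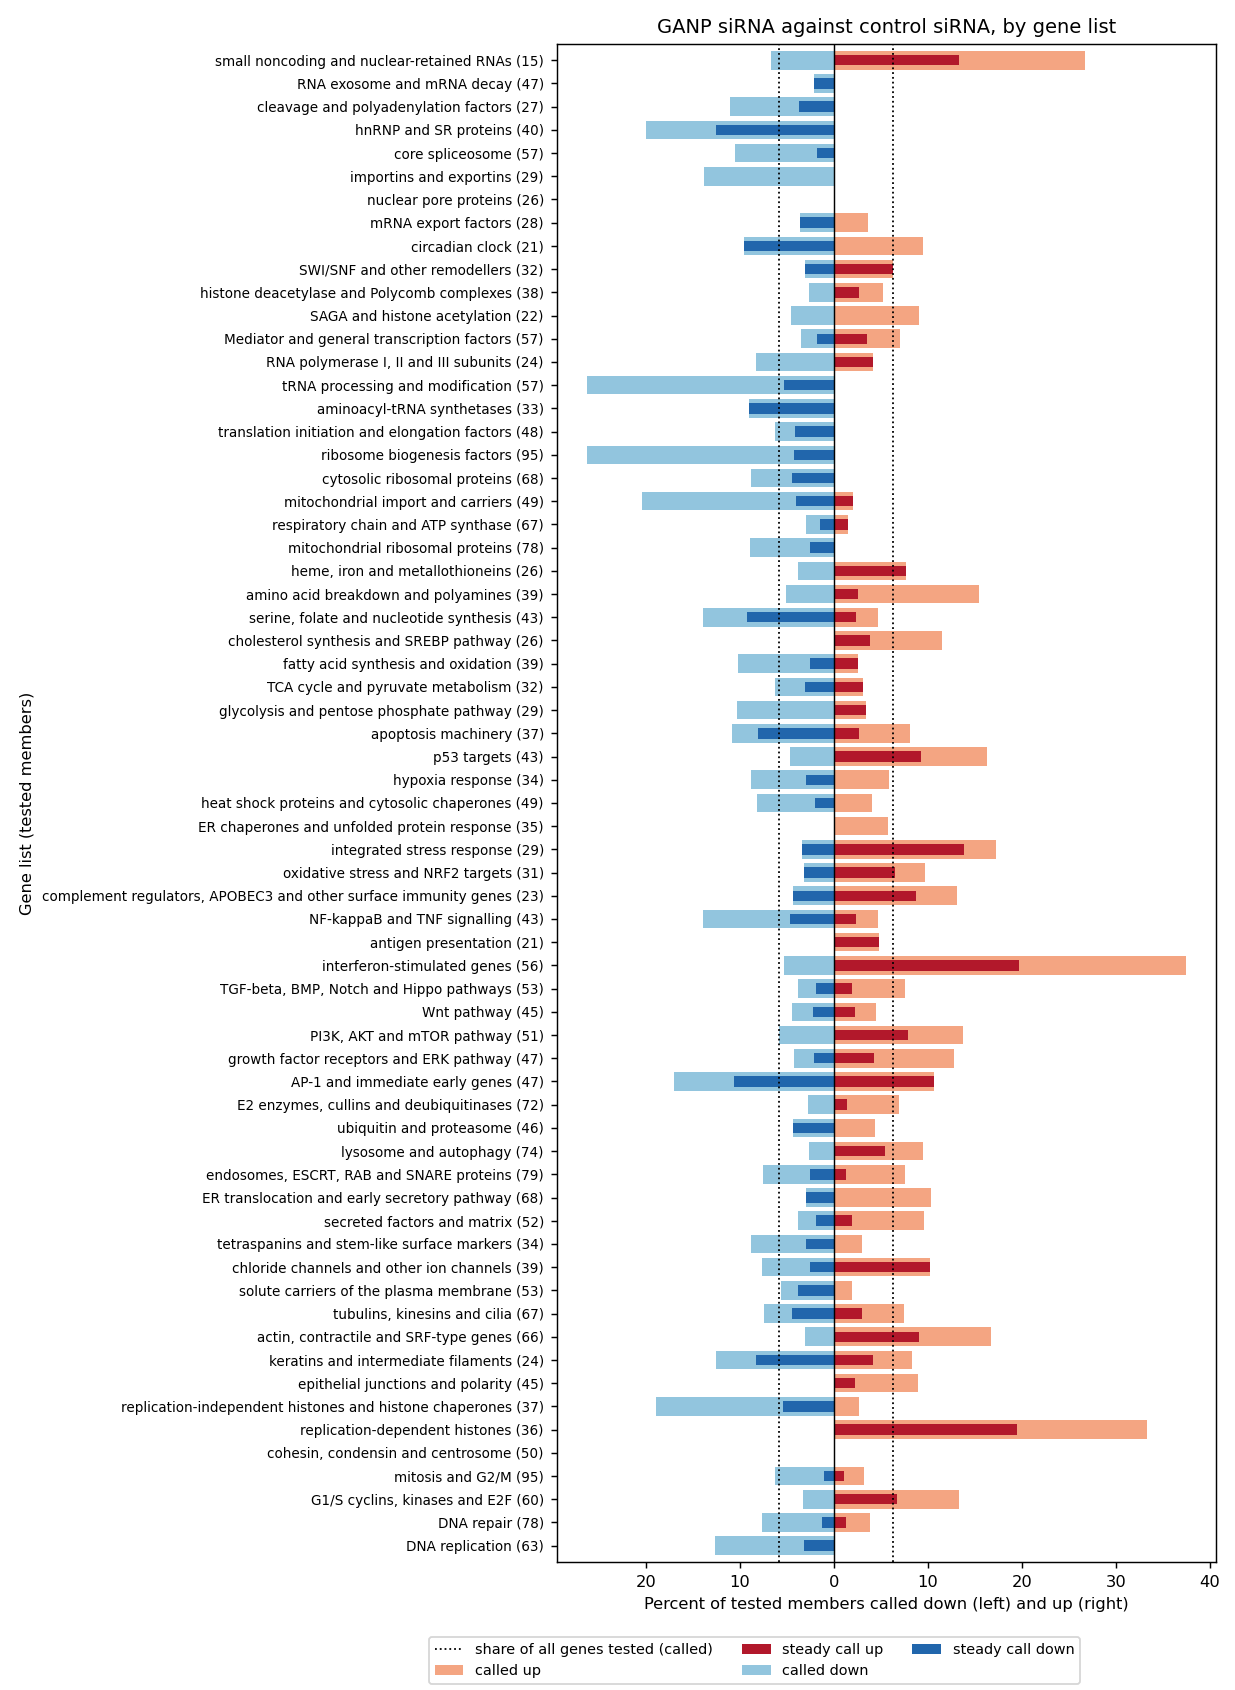
Share of tested members called down (left) and up (right) after GANP siRNA for the 65 functional gene lists, with the number of tested members in brackets. Pale bars are all calls, dark bars steady calls and dotted lines the shares over all genes tested (5.89% down, 6.3% up), and the longest bars are those of interferon-stimulated genes and replication-dependent histones to the right and of ribosome biogenesis and tRNA processing factors to the left.

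Replication-dependent histone genes lie in clusters and are transcribed in S phase from short, intronless units with a TATA box. Their mRNAs mostly end in a stem-loop in place of a poly(A) tail and leave the nucleus without splicing. Of 36 tested, 12 rose, 0 fell and 7 rises were steady (33.3% called up, against 6.3% of all genes), with a median log2 fold change of 0.18. The TATA boxes of 4 of the 7 are shown because these genes rose together and share this element. Each stretch is the 60 bases before the annotated start of the gene (GRCh38.p14, promoter sequence from RefSeq, strand of the gene), with TATAAA in capitals.
H2AC18 (chr1:149842751-149842810, minus strand): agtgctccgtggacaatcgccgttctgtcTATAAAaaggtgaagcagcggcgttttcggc
H2BC12 (chr6:27146859-27146918, minus strand): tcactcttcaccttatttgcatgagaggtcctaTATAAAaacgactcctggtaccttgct
H2BC5 (chr6:26158061-26158120, plus strand): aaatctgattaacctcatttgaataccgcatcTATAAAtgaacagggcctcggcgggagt
H4C12 (chr6:27831561-27831620, minus strand): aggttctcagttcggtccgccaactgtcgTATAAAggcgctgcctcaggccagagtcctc
TATAAA on either strand stood in the 300 bases around the start (250 before to 50 after) of 23 of 33 histone genes with a promoter sequence (69.7%), and in 716 of all 10636 tested genes with one (6.73%). It was as frequent among the histone genes that were not called up (15 of 21) as among the steady rises (5 of 7). H1-2 and H4C14 are the steady rises without it in this window.

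H2AC18, a histone H2A gene, gave log2 signals of 9.19, 8.98 and 8.73 with control siRNA, 10.31, 10.31 and 10.04 with GANP siRNA and 9.51, 9.29 and 9.08 with NXF1 siRNA. Both of its kept probes rose, by 1.25 and 1.01. The H2B gene H2BC12 went from 12.46, 12.28 and 12.02 to 13.21, 13.38 and 12.998 and stayed at 12.30, 12.39 and 12.01 with NXF1 siRNA. H2BC5 rose by 1.07 (standard error 0.22) and its signals spread widely within each group, from 9.69 to 10.62 in the control. The H4 genes H4C14 and H4C12 rose by 1.11 and 0.70, the linker histone H1-2 by 0.74 and H2AC20 by 0.45. In the direct comparison 10 of the 36 histone genes were higher with GANP siRNA than with NXF1 siRNA and 2 were lower (11.3% and 8.29% of all genes). Without control siRNA replicate 3 the 12 calls became 7. Copies within a histone family are nearly identical, so a probe may read several of them. Amplification that starts from poly(A) tails would favour polyadenylated copies, and which form of these mRNAs gave the signals was not tested.

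Replication-independent histones and histone chaperones, whose mRNAs carry poly(A) tails, fell in 7 of 37 cases (18.9%, against 5.89% of all genes) and rose in 1, with 2 steady falls and a median of -0.08. H1-10, a linker histone variant, fell by 0.59 (standard error 0.11) and NASP, the chaperone that stores H3 and H4, by 0.47 (standard error 0.09). With the experiment as a block 11 of these genes fell, while falls over all genes went from 773 to 1113. Without control siRNA replicate 2 only 2 of them fell, while falls over all genes went to 390. The gene called up was H2AJ at 0.40, chosen after its value was seen, which lost its call without GANP siRNA replicate 2 (adjusted p = 0.056). Among remodellers SMARCA2, an ATPase of SWI/SNF, and CHD2 rose by 0.46 and 0.43, and ARID2, a SWI/SNF subunit, fell by 0.46. PHC3, a Polycomb protein, rose by 0.66.

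Interferon-stimulated genes answer the transcription factors of the interferon pathway, which bind paired GAAA motifs. Of 56 tested, 21 rose (37.5%, against 6.3% of all genes) and 3 fell (5.36%, against 5.89%), and 11 rises and 0 falls were steady, with a median log2 fold change of 0.16. Their rises numbered 13 without control siRNA replicate 3. The promoter stretches of 4 steady risers are shown for the response motif, GAAA and GAAA with 2 bases between them or the reverse complement, in capitals (60 bases each, GRCh38.p14, RefSeq, strand of the gene).
IFI27 (chr14:94110616-94110675, plus strand): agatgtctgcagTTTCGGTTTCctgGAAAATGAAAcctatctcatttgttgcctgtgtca
ISG20 (chr15:88638922-88638981, plus strand): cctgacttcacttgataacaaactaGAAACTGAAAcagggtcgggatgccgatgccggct
HERC5 (chr4:88457020-88457079, plus strand): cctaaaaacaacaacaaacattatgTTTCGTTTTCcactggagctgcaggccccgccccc
EIF2AK2 (chr2:37156952-37157011, minus strand): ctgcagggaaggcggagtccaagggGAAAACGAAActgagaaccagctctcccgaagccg
This pair stood in the 300-base promoters of 28 of 43 interferon-stimulated genes (65.1%), of 4 of the 9 steady risers that have a promoter sequence and of 19 of the 27 not called up, against 305 of all 10636 (2.87%).

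IFIT2, which binds foreign RNA, went from log2 signals of 7.16, 7.41 and 7.20 with control siRNA to 7.89, 7.99 and 7.88 with GANP siRNA, and was at 7.36, 7.41 and 7.57 with NXF1 siRNA. Its direct difference from NXF1 siRNA was 0.47 (standard error 0.09, limma adjusted p = 0.0031). IRF7, the transcription factor that amplifies the interferon response, was highest with NXF1 siRNA, going from 6.78, 6.43 and 6.77 to 7.35, 7.13 and 7.503 with GANP siRNA and to 7.97, 8.13 and 7.97 with NXF1 siRNA. Its rise of 0.67 was 0.38 with its probes averaged. ISG20, an exonuclease, and EIF2AK2, the kinase that halts translation on double-stranded RNA, rose by 0.64 and 0.50 and did not pass the direct comparison (-0.06 and -0.14, limma adjusted p = 0.67 and 0.18). IFI27 rose by 0.65, the transcription factors IRF1 and IRF9 by 0.55 and 0.53, and PARP9 and the ISG15 ligase HERC5 by 0.47 each. The 3 genes that fell, IFIT5 (-0.39), OAS3 (-0.40) and LAMP3 (-0.38), are named after their values were seen. Each lost its call without 2 or more of the arrays, among them control siRNA replicate 2 for IFIT5 (adjusted p = 0.066) and LAMP3 (adjusted p = 0.062) and control siRNA replicate 3 for OAS3 (adjusted p = 0.053). Of neighbouring immune genes, the antigen-trimming peptidase ERAP2 rose by 0.68 on its brightest probe and by 0.32 on average. Among cytidine deaminases APOBEC3F and APOBEC3H rose by 0.60 (0.39 with its probes averaged) and 0.54 and APOBEC3C fell by 0.48.

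**Figure D4:**
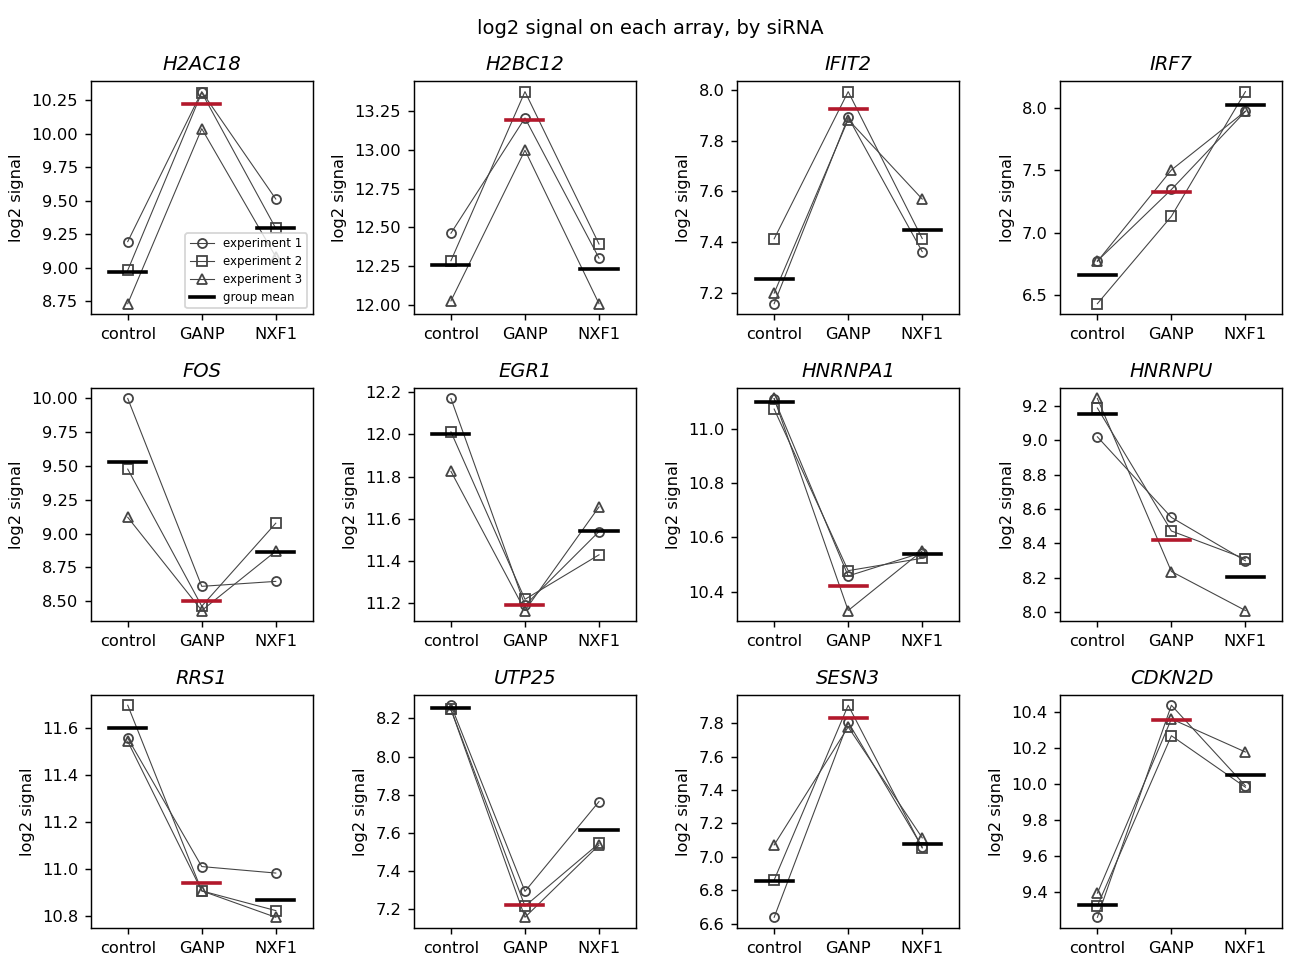
Log2 signal (vertical axes, each with its own range that does not start at 0) on each array of 12 genes with control, GANP and NXF1 siRNA. Symbols joined by a line are the arrays of 1 experiment and thick bars are group means. For each gene the 3 GANP siRNA arrays lie on one side of the 3 control arrays, which choosing steady calls favours.

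Immediate early and helix-loop-helix regulators held steady calls in both directions. FOS, an AP-1 subunit induced within minutes by growth signals, went from 9.997, 9.48 and 9.12 with control siRNA to 8.61, 8.46 and 8.43 with GANP siRNA, so that the control arrays spread much more than the depleted ones. EGR1, a zinc finger protein of the same response, went from 12.17, 12.01 and 11.82 to 11.19, 11.22 and 11.16 and was lower than with NXF1 siRNA (-0.35, limma adjusted p = 0.022). MYC fell on both of its probes, by 0.47 and 0.49, and the AP-1 partner BATF3 and the zinc finger protein KLF6 fell by 0.43 and 0.39. In the same list ID2, which keeps helix-loop-helix activators from DNA, went from 12.39, 12.51 and 12.56 to 13.27, 13.31 and 13.39. ID3 rose by 0.63, and MXD4, a MAX partner that represses MYC targets, by 0.73. For MXD4 the change with NXF1 siRNA was -0.30 and the direct difference 1.03 (standard error 0.08, limma adjusted p = 1.5e-05). ATF3 and NR4A2 rose by 0.51 and 0.41, NR4A2 by 0.29 with its probes averaged. Of the 47 tested genes of the list 5 rose (10.6%, against 6.3% of all genes) and 8 fell (against 5.89% of all genes), and 5 rises and 5 falls were steady. The 8 falls became 5 without control siRNA replicate 1 or GANP siRNA replicate 3.

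The ERK phosphatase DUSP6, a read-out of ERK activity in many cells, fell by 0.63 (standard error 0.10), whereas DUSP10, which acts on stress kinases, rose by 0.63 (standard error 0.08) from signals of 6.59, 6.62 and 6.55. The kinase MAPK3 rose by 0.39. Of 47 genes of growth factor receptors and the ERK pathway 6 rose (12.8%, against 6.3% of all genes) and 2 fell (4.26%, against 5.89%). The median of this list was 0.08, and its 6 rises were 2 to 7 without 1 array. FGF2, a growth factor, fell by 0.62. In the TGF-beta and BMP pathways SMAD7, an inhibitor of the receptors, rose by 0.62 and SMAD5, a BMP signal transducer, fell by 0.62. GSK3B, the kinase that marks beta-catenin for destruction, rose by 0.74 (standard error 0.10), and its 3 arrays (11.31, 11.50 and 11.65) lay above those of the control (10.75, 10.72 and 10.77). The NF-kappaB inhibitor NFKBIA rose by 0.45 and the receptor kinase IRAK1 fell by 0.60, a change not seen with NXF1 siRNA (-0.03, direct difference -0.57, limma adjusted p = 4.4e-04).

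CDKN2D, an inhibitor of CDK4 and CDK6, went from 9.26, 9.32 and 9.39 to 10.44, 10.27 and 10.36, a rise of 1.03 that was 0.58 when a much dimmer probe was averaged in. CDKN1C, another CDK inhibitor, rose by 0.54, the unusual cyclin CCNG2 by 0.76 (0.38 with its probes averaged) and TFDP2, a partner of E2F factors, by 0.61. Of 60 genes of the G1 to S transition 8 rose (13.3%, against 6.3% of all genes) and 2 fell (3.33%, against 5.89%), with 4 steady rises and 0 steady falls. The 8 rises became 4 without control siRNA replicate 2 or any 1 of the GANP siRNA arrays, and 5 without control siRNA replicate 1 or 3. The 2 that fell, CCNG1 (-0.41) and CDK6 (-0.33), were chosen after their values were seen. Both lost their calls without control siRNA replicate 1 or GANP siRNA replicate 3 (adjusted p = 0.056 and 0.082 for CCNG1, adjusted p = 0.054 and 0.059 for CDK6), and CCNG1 also without control siRNA replicate 2 or GANP siRNA replicate 1 and CDK6 without control siRNA replicate 3 or GANP siRNA replicate 2.

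SESN3, a sestrin that restrains the mTORC1 kinase, went from 6.64, 6.86 and 7.07 to 7.81, 7.91 and 7.78 with GANP siRNA and stayed at 7.06, 7.05 and 7.11 with NXF1 siRNA, a direct difference of 0.76 (limma adjusted p = 3.4e-04). INPP4B, a phosphatase of phosphoinositides, rose by 0.81, and the nutrient-sensing GTPase RRAGC and the AMPK subunit PRKAG2 by 0.41 and 0.39. PRKAG2 stood at 0.26 with its probes averaged, and its dimmer probe was at 0.14 and was not called. Of the 51 genes of the PI3K, AKT and mTOR pathway 7 rose and 3 fell (13.7% and 5.88%, against 6.3% and 5.89% of all genes), and 4 rises and 0 falls were steady. MTOR (-0.26), MLST8 (-0.27) and PRKAG1 (-0.49), chosen after their values were seen, fell and lost their calls without control siRNA replicate 1 or GANP siRNA replicate 3, and MTOR and MLST8 without further arrays. Among p53 targets TP53I3, an oxidoreductase, rose by 0.75, RRM2B, the p53-induced subunit of ribonucleotide reductase, by 0.61 and the lysosomal fucosidase FUCA1 by 0.54. In all 7 of 43 were up and 2 down (16.3% and 4.65%, against 6.3% and 5.89% of all genes), and 11 were up with the experiment as a block. With their probes averaged TP53I3 stood at 0.48 and RRM2B at 0.28. Of 50 genes of cohesin, condensin and centrosome 0 were called in limma, 5 had an unadjusted p under 0.05, and 2 rose with the experiment as a block. Of 95 genes of mitosis 3 rose and 6 fell (3.16% and 6.32%, near or below the shares over all genes), the kinase PLK4 (0.35) and ARPP19 being the steady ones. The 6 falls became 1 without control siRNA replicate 3 and 2 without control siRNA replicate 2 or GANP siRNA replicate 3. Of 63 genes of DNA replication 0 rose and 8 fell (12.7%, against 5.89%), with RNASEH1, which removes RNA from hybrids with DNA, and the fork protein TIMELESS steady at -0.63 and -0.42. Leaving out control siRNA replicate 1 lowered their count to 5. It was 3 without control siRNA replicate 2 and 4 without control siRNA replicate 3 or GANP siRNA replicate 3.

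Of 40 hnRNP and SR proteins 0 rose and 8 fell, and 5 falls were steady (20% down against 5.89% of all genes). HNRNPA1, which represses splice sites, went from 11.11, 11.07 and 11.11 to 10.46, 10.48 and 10.33, although its second probe was at -0.25 and was not called. HNRNPU, a scaffold protein of chromatin and RNA, went from 9.02, 9.19 and 9.24 to 8.55, 8.47 and 8.24, and its second probe was at 0.11, so that the average of both was -0.31. HNRNPDL and HNRNPA0 fell by 0.63 and 0.54 and the SR protein SRSF6 by 0.39. In the direct comparison HNRNPA0 was higher with GANP siRNA than with NXF1 siRNA (0.29, limma adjusted p = 0.033) and HNRNPA1 did not pass (-0.12, adjusted p = 0.30). The core spliceosome had 6 falls among 57 genes (10.5%, against 5.89% of all genes). These falls were 1 without control siRNA replicate 2 or GANP siRNA replicate 3 and 3 without control siRNA replicate 3. SNRPD3, an Sm protein, was the steady fall at -0.93 (standard error 0.11). CSTF2T, a cleavage stimulation factor subunit encoded without introns, fell by 1.02 and the exosome subunit EXOSC6 by 1.00, with EXOSC6 at 11.84, 11.88 and 11.67 in the control and 10.84, 10.80 and 10.74 with GANP siRNA. They were the only steady calls among 27 cleavage factors and 47 decay factors, where 2.36% of all genes were steady falls. Of the cleavage factors 3 fell (11.1%, against 5.89% of all genes), and 1 to 4 without 1 array. Of the decay factors 1 fell (2.13%), and 0 rose in either list.

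Of 26 nuclear pore proteins 0 were called in limma, 2 had an unadjusted p under 0.05, and with the experiment as a block 1 fell. Of 28 mRNA export factors 1 rose and 1 fell (3.57% each, against 6.3% and 5.89% of all genes). THOC6, a subunit of the THO complex, fell by 0.48, and THOC1 of the same complex rose by 0.32 (chosen after its value was seen), a call lost without any 1 of the control or GANP siRNA arrays or without NXF1 siRNA replicate 2 (adjusted p between 0.051 and 0.12). The list of importins and exportins also holds RCC1, the exchange factor of the GTPase Ran, which is neither. Among its 29 tested genes, 26 had a value below 0 and 4 fell (13.8%, against 5.89% of all genes). They were IPO5, KPNA6, IPO8 and RCC1, at -0.46, -0.37, -0.27 and -0.52. With the experiment as a block 7 fell. These 4 were chosen after their values were seen and none was steady, each losing its call without control siRNA replicate 1 or GANP siRNA replicate 3, among others. In the transcription machinery POLR2A, the largest subunit of RNA polymerase II, went from 11.36, 11.65 and 11.74 to 12.26, 12.35 and 12.40 and was also higher than with NXF1 siRNA (0.58, limma adjusted p = 0.0015). The helicase ERCC2 and the initiation factor GTF2B rose by 0.55 and 0.41 and MED20, a Mediator subunit, fell by 0.54. Among small noncoding and nuclear RNAs the telomerase RNA TERC rose by 0.69.

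Ribosome biogenesis factors make, fold and trim ribosomal RNA in the nucleolus. Of 95 tested, 89 had a value below 0, 25 fell and 0 rose (26.3% down against 5.89% of all genes), with a median log2 fold change of -0.18. Steady falls numbered 4. UTP25, a nucleolar protein of the small subunit processome, went from 8.27, 8.25 and 8.25 to 7.29, 7.21 and 7.16, below the NXF1 siRNA arrays at 7.76, 7.54 and 7.54 (direct difference -0.39, limma adjusted p = 0.0054). RRS1, which assembles the large subunit, fell by 0.66 and TSR1 and WDR36 of the small subunit pathway fell by 0.51 and 0.40, TSR1 by 0.33 with its probes averaged. In the direct comparison 23 of the 95 lay below their NXF1 siRNA level and 1 above it, against 8.29% and 11.3% of all genes, while the list median with NXF1 siRNA was -0.02. The 25 calls became 7 to 12 without any 1 of control siRNA replicates 1, 2 and 3 or GANP siRNA replicates 2 and 3 (12, 10, 11, 8 and 7), although the median stayed between -0.20 and -0.17 in the fits without 1 array.

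Transfer RNAs are trimmed and chemically modified before use. Of 57 tested factors of tRNA processing and modification, 15 fell (26.3%, against 5.89% of all genes) and 0 rose, with a median of -0.17 and 3 steady falls. TRMT61A, the catalytic subunit of a tRNA methyltransferase, went from 8.16, 8.25 and 8.21 to 7.70, 7.74 and 7.72 and was at 8.36, 8.17 and 8.34 with NXF1 siRNA (direct difference -0.57, limma adjusted p = 3.7e-04). CTU1, which thiolates the wobble uridine, fell by 0.46 and also differed from NXF1 siRNA (-0.36, limma adjusted p = 0.014), and the pseudouridine synthase PUS1 fell by 0.43. The 15 calls became 4 without control siRNA replicate 3 and 5 to 8 without control siRNA replicates 1 or 2 or GANP siRNA replicates 2 or 3. Of 33 aminoacyl-tRNA synthetases 3 fell (9.09%, against 5.89% of all genes), and 6 fell with the experiment as a block. The 3 serve mitochondria, namely MARS2 (-0.78, or -0.41 with its probes averaged), SARS2 (-0.50) and EARS2 (-0.40).

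Cytosolic ribosomal proteins had a median of -0.01 over 68 genes. Of these 6 fell (8.82%, against 5.89% of all genes) and 0 rose (against 6.3%), and the falls were 4 to 7 without 1 array. RPS23, RPL32 and RPL37 fell steadily, by 0.89, 0.81 and 0.67. RPL32 stood at -0.55 and RPL37 at -0.46 with their probes averaged. Ribosomal protein genes have many processed pseudogenes, so their probes may read more than 1 locus. Of translation factors, EIF2S2, the beta subunit of eIF2, went from 9.15, 9.10 and 8.94 to 8.46, 8.36 and 8.09, and EIF5A2 fell by 0.53.

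Of 49 mitochondrial import factors and carriers 10 fell and 1 rose (20.4% and 2.04%, against 5.89% and 6.3% of all genes). The steady falls were TIMM8A, a chaperone of the intermembrane space (-0.57), and SLC25A12, the aspartate and glutamate carrier (-0.47), and the rise was SLC25A42, the carrier of coenzyme A (0.40). The 10 falls became 4 to 6 without 1 of the control siRNA arrays or of GANP siRNA replicates 2 and 3. CYCS, cytochrome c, went from 8.10, 7.98 and 8.17 to 7.27, 7.08 and 7.13 and lay below its NXF1 siRNA signals (direct difference -0.39, limma adjusted p = 0.0089). The respiratory chain had 1 rise, NDUFA13 at 0.36, and 2 falls among 67 genes (1.49% and 2.99%, both below the shares over all genes), with 38 of the 67 above 0. The mitochondrial ribosomal proteins MRPS14 and MRPS16 fell by 0.61 and 0.47.

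Nucleotide synthesis included DUT, which keeps uracil out of DNA (-0.75, or -0.41 with its probes averaged), the purine enzyme PAICS, from 14.26, 14.38 and 14.32 to 13.64, 13.74 and 13.50, and CAD, which starts pyrimidine synthesis (-0.46). AHCY, which removes the by-product of methylation, fell by 0.45. Of 43 genes of serine, folate and nucleotide synthesis 6 fell and 2 rose (14% and 4.65%, against 5.89% and 6.3% of all genes), and 10 fell with the experiment as a block. Isocitrate dehydrogenases moved apart, the cytosolic IDH1 rising by 0.40 and IDH3A of the TCA cycle falling by 0.50. So did fatty acid elongases, with ELOVL5 at 0.41 and ELOVL6 at -0.49. IDH1 also differed from NXF1 siRNA, by 0.58 (limma adjusted p = 3.1e-04). ALDOC, a brain-type aldolase, rose from 11.55, 11.90 and 11.98 to 12.42, 12.57 and 12.59, and cystathionine lyase CTH rose by 0.41. The metallothionein MT1F and NCOA4, the receptor that takes ferritin to lysosomes, rose by 0.41 and 0.35.

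DDIT3, the gene of the pro-apoptotic factor CHOP, rose from 8.55, 8.32 and 8.62 to 9.11, 8.99 and 9.33, a small part of its rise with NXF1 siRNA, where it reached 11.09, 11.33 and 11.54. CEBPG, a partner of ATF4, fell by 0.77 and EIF2AK2 and CTH, named above, belong to this list too. Of the 29 genes of the integrated stress response 5 rose and 1 fell (17.2% and 3.45%, against 6.3% and 5.89% of all genes), with 4 steady rises and 1 steady fall. In the direct comparison 13 of them lay below their NXF1 siRNA level and 2 above it (8.29% and 11.3% of all genes). Of 35 ER chaperones and unfolded protein response genes 28 had a value above 0, with a median of 0.13. In this list 2 rose (5 with the experiment as a block) and 0 fell (1 with the block). The share that rose, 5.71%, was near the 6.3% of all genes. The 2 were DNAJC3 (0.53) and CREB3L2 (0.31), neither of them steady and both chosen after their values were seen. Each lost its call without control siRNA replicate 2 or 3 or GANP siRNA replicate 3, among others. NQO1, a quinone reductase controlled by NRF2, fell by 0.64 (standard error 0.09) while SOD2, the mitochondrial superoxide dismutase, rose by 0.58 (0.37 with its probes averaged). BAG5, a co-chaperone of HSP70, fell by 0.70 and stood at -0.48 with its probes averaged. In the apoptosis machinery BID, a BH3-only activator, went from 9.66, 9.75 and 9.58 to 8.92, 9.04 and 8.89, and the protective proteins BIRC2 and BCL2L2 also fell, by 0.45 and 0.43. The inflammatory caspase CASP4 rose by 0.70, or by 0.38 with its probes averaged.

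Of 74 lysosome and autophagy genes 54 had a value above 0, 7 rose and 2 fell (9.46% and 2.7%, against 6.3% and 5.89% of all genes). The rises were 12 with the experiment as a block and 4 without control siRNA replicate 3 or GANP siRNA replicate 2, and the median of 0.13 ranged down to 0.07 without 1 array. The sulfatase IDS rose by 0.83 (0.38 with its probes averaged), the sialidase NEU1 by 0.61, the proton pump subunit ATP6V1H by 0.42 (0.66 with its probes averaged) and the autophagosome protein GABARAPL1 by 0.41. The falls, MAN2B1 (-0.34) and ATP6V1C1 (-0.43), were chosen after their values were seen. MAN2B1 lost its call without control siRNA replicate 1 or 2 or GANP siRNA replicate 2, and ATP6V1C1 with its probes averaged (-0.21, adjusted p = 0.13). Of 66 actin and contractile genes 51 had a value above 0, 11 rose and 2 fell (16.7% and 3.03%, against 6.3% and 5.89% of all genes), with 6 steady rises. MYO5A, a cargo motor, went from 8.68, 8.77 and 8.72 to 9.51, 9.66 and 9.67, and MYO6 rose by 0.63, the myosin light chain MYL12A by 0.47, the actin regulator CORO1B by 0.44 and the cross-linker ACTN1 by 0.43. Without control siRNA replicate 2 or GANP siRNA replicate 2 the 11 rises were 7. MYH14 (-0.36) and ENAH (-0.40), the 2 that fell, were chosen after their values were seen and lost their calls without GANP siRNA replicate 3 (adjusted p = 0.054 and 0.11), ENAH also without 5 of the other arrays.

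Of 39 ion channel genes 4 rose and 3 fell (10.3% and 7.69%, against 6.3% and 5.89% of all genes). With CLIC3 the risers were CLIC1, AQP11, a water channel of inner membranes, and ANO10, at 0.35, 0.50 and 0.42, and the connexin GJB2 fell by 0.59. TEX261, a protein of the early secretory pathway, went from 9.24, 8.93 and 8.76 to 8.002, 7.84 and 7.65. The other steady falls of trafficking genes were the GTPase RAB22A (-0.78), the SNARE STX16 (-0.52, or -0.27 with its probes averaged) and ARF3 (-0.46), while the fusion ATPase NSF rose by 0.36. The adhesion receptor CD44 fell by 0.55 (0.34 with its probes averaged) and JUP, plakoglobin, rose by 0.52 (0.34 with its probes averaged), with no change of JUP past the threshold under NXF1 siRNA (-0.05). KRT15 fell by 0.86 and the protease PLAU rose by 0.71. Proteins of cilia split. BBS9 was at 0.60 (0.42 with its probes averaged). IFT57, ARL3 and the dynein light chain DYNLT3 were at -0.54, -0.51 and -0.58 (DYNLT3 at -0.36 with its probes averaged).

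The direct comparison of the depleted groups asked where GANP siRNA differed from NXF1 siRNA. Over all genes 1484 were higher with GANP siRNA (11.3%) and 1088 lower (8.29%), and with median scaling of the arrays the counts were nearly equal, at 1292 and 1288. Of the 336 steady rises 148 were higher with GANP siRNA than with NXF1 siRNA and 32 lower, and of the 309 steady falls 65 were lower and 35 higher. The steady calls were selected on the same GANP siRNA arrays, which favours these directions, so the counts are a description and not a test. Both depletions were set against the same control arrays, so the values of each are given side by side. There were 16 steady rises that were called down with NXF1 siRNA, and 0 steady falls that were called up with it. The shares of all genes called with NXF1 siRNA are not set beside these counts. They therefore do not show whether opposite movement was frequent among steady calls.

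The widest gaps above 0 were in genes that moved in opposite directions or in 1 depletion. ARID5B, a DNA-binding cofactor, went from 9.12, 9.28 and 9.47 with control siRNA to between 9.97 and 10.36 with GANP siRNA and 8.40, 8.13 and 8.68 with NXF1 siRNA. ACTA2, smooth muscle actin, was at 10.46, 10.30 and 10.22, then 11.04, 11.02 and 10.88, then 9.57, 9.37 and 9.30. In both genes the 3 groups did not overlap and the direct differences were 1.71 and 1.57 (limma adjusted p = 1.5e-05 and 2.5e-06). CPT1C, a carnitine palmitoyltransferase of neurons, had 0.48 and -0.83, CCDC92 0.71 and -0.53, the pore-forming GSDME 0.46 and -0.77, APOBEC3H 0.54 and -0.65 and the adaptor SHD 0.42 and -0.71 as log2 fold changes with GANP and NXF1 siRNA. H2BC5 had 1.07 and -0.10.

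The widest gaps below 0 were of another kind. DDIT3, RN7SK, KRT80, PLAU, RIMBP3 and FGD6 rose with GANP siRNA and rose further with NXF1 siRNA. The log2 fold changes of RN7SK were 1.12 and 2.51, those of KRT80 0.98 and 2.34, those of PLAU 0.71 and 1.73, those of RIMBP3 0.55 and 1.49 and those of FGD6 0.45 and 1.30. RIMBP3 stood at 0.29 with its probes averaged. MCM3AP itself and TEX261 complete these 8 and had fallen against control siRNA, TEX261 at -1.15 against -0.28 with NXF1 siRNA (direct difference -0.87, standard error 0.13, limma adjusted p = 6.0e-04). SLC16A14, a monocarboxylate carrier, and the amino acid carrier SLC36A4 fell with GANP siRNA (-0.61 and -0.43), SLC16A14 by 0.37 with its probes averaged. With NXF1 siRNA the 2 genes had 0.03 and -0.05, with direct differences of -0.65 and -0.38. Both of their direct differences passed (limma adjusted p = 4.1e-04 and 0.0084).

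**Figure D5:**
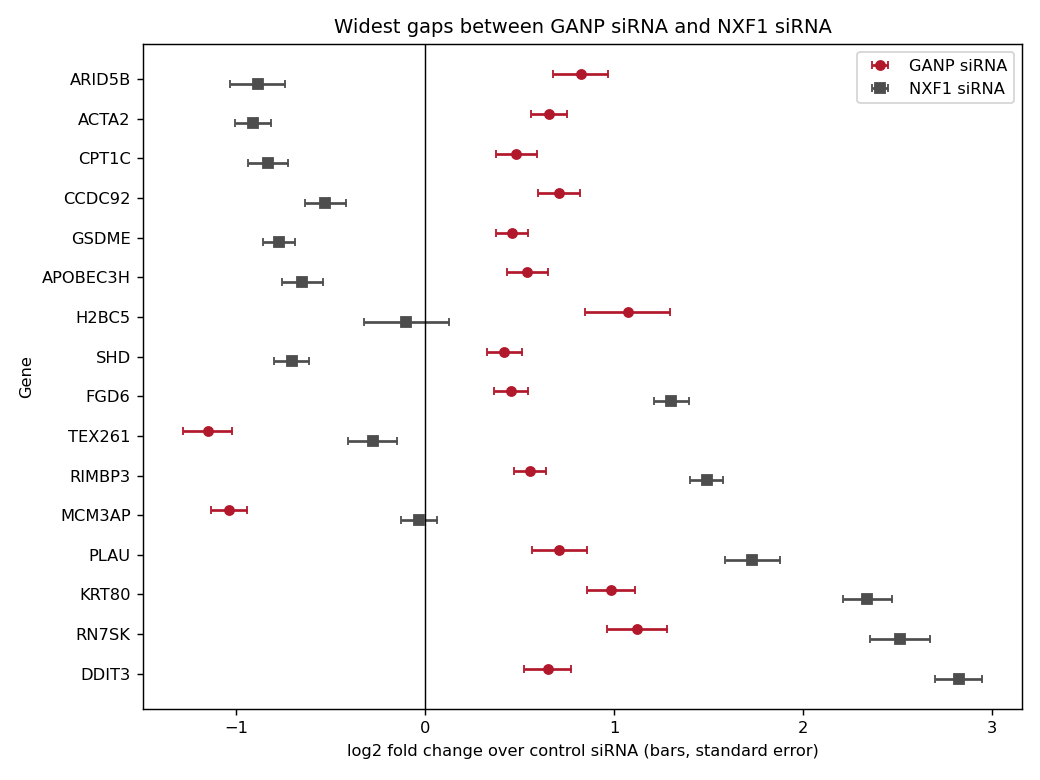
Log2 fold change over control siRNA (horizontal axis) with GANP siRNA (red circles) and NXF1 siRNA (grey squares), with standard errors from the fit, for the 8 steady calls with the widest gap between the depletions in each direction. The top 8 rows lie further right with GANP siRNA, 7 of them with NXF1 siRNA values from -0.53 to -0.91, and in the lower 8 rows the NXF1 siRNA value lies further right.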

How the data were processed

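Per the labels and the methods, the authors hybridised biotinylated cytoplasmic RNA to 9 Illumina HumanWG-6 v3 arrays and quantile normalized the signals. The submitters' processing notes name lumi, its version not being given in the sources used here. The deposited value table holds linear signal intensity for 48803 probes without background subtraction. A second table with 18 columns that no label pairs with samples was not used. Signals were corrected with normexp (offset 50) and taken to log2 in limma 3.58.1 (R 4.3.3). Probes with 1 symbol (27578, with 13 holding several and 21212 none, as RefSeq-updated names, 0 changed) whose mean exceeded 6.35, the median over the whole table, entered, and the brightest probe stood for each gene. lmFit and eBayes used all 3 groups (6 residual and 6.43 prior degrees of freedom). The fit was checked on simulated data. Only 3 arrays per group limit the precision.

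Same-numbered arrays correlated at 0.107 to 0.461 after group means were removed and the others at -0.402 to 0.12, computed over genes, so the experiment numbers, given in the sample titles, pair the arrays. The main design has no block, so its p-values do not use this pairing. With the block 1194 genes rose and 1113 fell. The members and lists were chosen with earlier results of these data known. Named are MCM3AP, the 20 largest steady rises and falls, up to 4 steady calls per list and direction, the 8 smallest adjusted p-values in each direction, the 8 widest gaps to NXF1 siRNA in each direction and cell markers. The text marks the genes picked outside this rule.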

Additional observations from a re-analysis of the deposited data

How the results depend on the processing

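Steady calls were defined by the replicate block, the authors' uncorrected signals, averaged probes, a fit of the compared groups alone and the fits without 1 array. Their calls in those settings were therefore fixed in advance, and dropping the fold threshold cannot remove a call. The settings outside the definition were a second quantile normalization, median scaling, no signal filter and an intensity trend. In these the 188 named steady calls beside MCM3AP, and MCM3AP itself, kept their direction and their side of the thresholds. The full counts moved little there, at 824 up and 774 down, 832 and 756, 753 and 674, and 893 and 834. Genes already kept by the 14 fits were likely to keep their calls in them, so this is no separate support. Averaging probes moved 26 of the fold changes of the named steady calls by over 1.5 times. MCM3AP ranged from -1.12 to -0.97 without 1 array. The counts after GANP siRNA were 487 to 910 up and 390 to 865 down without 1 array, and with the replicate block 1194 and 1113. At an adjusted p of 0.01 they were 352 and 307. In the direct comparison 1484 genes higher and 1088 lower with GANP siRNA became 849 and 484 at 0.01, 1758 and 1404 with the replicate block and 1058 to 1496 and 668 to 1121 without 1 array, 668 genes being lower without GANP siRNA replicate 2 and 708 without NXF1 siRNA replicate 2. By definition the replicate block changed no call of a named steady gene against control siRNA. In the direct comparison it added ANO10, ELF3, ELOVL6 and VMA21. Median scaling gave 1292 higher and 1288 lower there. List counts stayed within 1.5 times in 2075 of 2584 list and setting pairs. Signal close to background limits the dim genes, which were called least often.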
